A study of Mus musculus with 24 samples.

Results

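The 10 genes described here are markers of T cells and of their precursors in the thymus, measured in mouse aorta. They are Rag1, Dntt and Ptcra, which are used in developing lymphocytes and are called thymus-only genes below, and Cd3e, Cd3g, Lck, Cd4, Cd8a, Cd8b1 and Tcf7, called pan-T genes. All array rows outside controls that carry these gene names were taken, which gave 14 probes, and the brightest probe over the 24 arrays stood for a gene. All 10 genes were among the 23503 genes that entered the tests of the whole series. The set was chosen from the signals of these same arrays, so the levels of the 10 genes and their changes between groups are given as a description, with no test.

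The study crossed genotype, drinking water and infusion in 8 groups with 3 arrays each, and the series calls the replicates biological. The mice were C57BL/6, either wild-type or IL-17 knockout, and the labels do not say which IL-17 gene was deleted, nor the age or sex of the mice. They drank plain water or 1% NaCl (salt), before and during 3 days of infusion with either vehicle or BAPN plus angiotensin II. BAPN (β-aminopropionitrile) blocks the lysyl oxidases that crosslink elastin and collagen, and angiotensin II raises blood pressure. Below, a control received vehicle and plain water, a salt group received vehicle and salt, an infusion group received BAPN plus angiotensin II on plain water, and a salt-infusion group received all of these. All mice ate normal chow. The labels name the aorta as the material, while the extraction protocol speaks of cells.

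T cells recognise antigen with a receptor whose α and β chains sit in the membrane beside the CD3 proteins. The CD4 and CD8 co-receptors bind the kinase Lck, which starts signalling by phosphorylating the CD3 chains. Thymocytes, the precursors in the thymus, build the receptor genes by cutting and joining DNA with the RAG1-RAG2 recombinase, and terminal transferase, encoded by Dntt, adds bases at the joints. Pre-Tα, encoded by Ptcra, pairs with the first rearranged β chain before an α chain exists. Mature T cells have switched these 3 genes off, while Tcf7, a transcription factor of the T lineage, stays on in naive cells. Healthy aorta holds few lymphocytes, mostly in the adventitia and the fat around the vessel, and the thymus lies close to the aortic arch.

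A signal is given as log2 of the processed spot intensity minus log2 of the 75th percentile of that array's spots, so 0 is the brightness of the 75th percentile spot and a difference of 1 is a doubling. A probe is called well above background where the scanner software flagged it so. Between 51.1% and 60.8% of an array's spots were well above background, and with 3 arrays a group the precision of each mean is limited. The 4 slides were scanned separately and none holds both genotypes, so genotype and slide cannot be told apart here. Aortic tissue was plain in the signals: 7 of 7 smooth muscle markers, with Acta2 and Tagln the highest, and 5 of 5 endothelial markers, with Vwf and Kdr the highest, were well above background on all 24 arrays. Neither the Il17a nor the Il17f probe was well above background on any array (0 of 24), so they do not check the genotype labels.

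The probe sequences are shown because the signals below were measured on them. Each probe is 60 bases long, and the last 30 bases at its 3′ end are given on the strand of the transcript, with any AATAAA in capitals, the hexamer that signals where a transcript is cut and given its poly(A) tail. Coordinates are those of the array files, on mm9, and the exon or untranslated region at each probe was not analysed here. The first 4 probes hold the hexamer and the last 4 do not.
Dntt, plus strand, chr19:41133936-41133995: tgtctgaatctctgtgtattgccAATAAAa
Lck, minus strand, chr4:129225614-129225673: tgcctagcacacaccaggagctcAATAAAa
Cd3e, minus strand, chr9:44806828-44806887: taatgcaaaaggcAATAAAgtgtattggct
Cd4, minus strand, chr6:124814711-124814770: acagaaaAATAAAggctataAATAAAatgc
Rag1, minus strand, chr2:101478813-101478872: tactgtatggcagttgttctagttttccta
Ptcra, minus strand, chr17:46892827-46892886: ctgggcacaatacaaaagtcttataaaaca
Cd8a, plus strand, chr6:71328911-71328970: tctatctattgttactatcattttatacct
Cd8b1, plus strand, chr6:71287231-71287290: ctctcgtggcttatatatttcttctctcac

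Of the 14 probes for the 10 genes, 4 held AATAAA anywhere in their 60 bases, and those 4 (Dntt, Lck, Cd3e and Cd4) were well above background on all 24 arrays. None of the other 10 probes was, which is 0 of 10. Over all 55681 probes of the array, 10.1% held the hexamer on the strand of the probe, and 57.6% of those were well above background on all 24 arrays against 42.5% of the probes without it. The match is a description of the letters in these windows. Among the probes without the hexamer, Cd3g was well above background on 22 arrays, Tcf7 on 21, Cd8b1 on 10, Rag1 on 9, and Cd8a and Ptcra on 8 each. Cd8a, Cd8b1, Ptcra and Rag1 passed the filter on dim probes only through groups in which they were high.

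Rag1, the nuclease subunit of the recombinase, had the widest range of the set. In the wild type its signal was -2.33, -6.49 and -0.52 on the 3 control arrays, -2.18, -1.99 and -3.02 with salt, -6.02, -3.69 and -6.78 with infusion, and -2.83, -6.71 and -7.15 with salt and infusion. In the knockout it was -0.94, -2.64 and -5.34 in controls, -6.62, -4.82 and -5.14 with salt, -6.65, -6.87 and -4.80 with infusion, and -5.54, -7.37 and -7.24 with salt and infusion. Single control arrays of both genotypes were the highest of all 24, and another control array of the same group lay 62.7-fold lower in the wild type and 21.1-fold lower in the knockout. In the wild-type salt group the 3 arrays lay together and were all well above background, and in the 3 other knockout groups no array was.

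Dntt, which marks immature T and B cells, was well above background on every array. Its wild-type signals were -0.47, -2.49 and 1.30 in controls, -0.12, -0.18 and -0.74 with salt, -2.83, -1.26 and -2.67 with infusion, and -1.29, -2.93 and -3.22 with salt and infusion. The knockout signals were 1.17, -0.72 and -2.35 in controls, -3.87, -2.98 and -2.04 with salt, -3.08, -4.35 and -1.38 with infusion, and -2.86, -3.46 and -3.99 with salt and infusion. As for Rag1, wild-type control 3 and knockout control 1 were the highest arrays, and wild-type control 2 lay as low as infused arrays. Controls and infused arrays therefore overlapped in both genotypes on plain water, while the 3 salt arrays of the wild type lay above all 3 arrays with salt and infusion.

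Ptcra, the pre-T cell receptor α chain, varied less. Its wild-type signals were -4.00, -4.41 and -3.27 in controls, -4.49, -4.65 and -4.56 with salt, -5.33, -4.63 and -3.62 with infusion, and -4.86, -6.11 and -6.67 with salt and infusion. In the knockout they were -3.10, -4.37 and -4.53 in controls, -4.39, -5.16 and -4.03 with salt, -5.83, -5.01 and -4.65 with infusion, and -5.66, -5.36 and -5.45 with salt and infusion. Knockout control 1 and wild-type control 3 were again the highest, but wild-type infusion 3, with low Rag1 and Dntt, was also well above background. The wild-type salt arrays, high in Rag1 and Dntt, were not set apart by Ptcra.

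Among the pan-T genes, the co-receptor chains Cd8a and Cd8b1 were close to the thymus-only genes in their pattern. Cd8a, which encodes the CD8 α chain, had wild-type signals of -3.37, -5.86 and -2.03 in controls, -3.29, -3.43 and -4.28 with salt, -5.77, -4.68 and -5.43 with infusion, and -4.59, -4.51 and -6.73 with salt and infusion. Knockout controls had -2.15, -3.80 and -5.53, and the 9 other knockout arrays, none of them well above background, lay between -6.95 and -5.52. Cd8b1, the β chain, reached -1.60 on wild-type control 3 and -1.57 on knockout control 1, and was lowest on wild-type salt-infusion 3 at -7.13. A second probe for Cd8a was well above background on 4 arrays. These were knockout control 1 at -3.49, wild-type controls 1 and 3 at -4.54 and -2.96, and wild-type infusion 2 at -1.75, an array where the brightest Cd8a probe was at -4.68, so the probes disagree there.

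Tcf7 and Lck followed the same arrays with less contrast. Tcf7 had control signals of -2.68, -4.70 and -0.89 in the wild type and -1.03, -2.58 and -4.07 in the knockout, and its lowest value was -5.51 on knockout salt 1. Lck, the kinase bound to the co-receptors, had control signals of -0.21, -2.15 and 1.47 in the wild type and 1.58, -0.01 and -1.21 in the knockout. The 3 knockout salt arrays were together the lowest group for Lck, from -2.18 to -1.67. Cd3g, a CD3 signalling chain, was -2.84, -3.92 and -0.99 in wild-type controls and -1.75, -3.28 and -3.46 in knockout controls, and was not well above background on 2 arrays, wild-type infusion 1 and wild-type salt-infusion 3.

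Cd3e and Cd4 lay at different levels in the genotypes. Wild-type control 3 was again the highest array for both, and knockout control 1 the highest knockout array. Cd3e, the CD3 ε chain, lay between -0.11 and 0.97 on the 12 wild-type arrays, and between -1.20 and 0.24 on the 12 knockout arrays, where only knockout control 1 was above -0.63. Its wild-type control signals were 0.05, -0.01 and 0.97 and its wild-type infusion signals 0.31, 0.54 and 0.71. Cd4 lay between 1.01 and 1.60 in the wild type and between 0.38 and 1.1 in the knockout. Both genes therefore separated by genotype, which cannot be told apart from slide, more than by treatment. A second Cd4 probe, 1 of the 10 without the hexamer, was well above background on 1 array and lay between -6.37 and -4.41, so the bright Cd4 signal rested on 1 probe. CD4 is also made by macrophages and dendritic cells. Second probes for Rag1 and Tcf7 were well above background on 0 arrays and on 1 array, wild-type control 3.

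**Figure D1:**
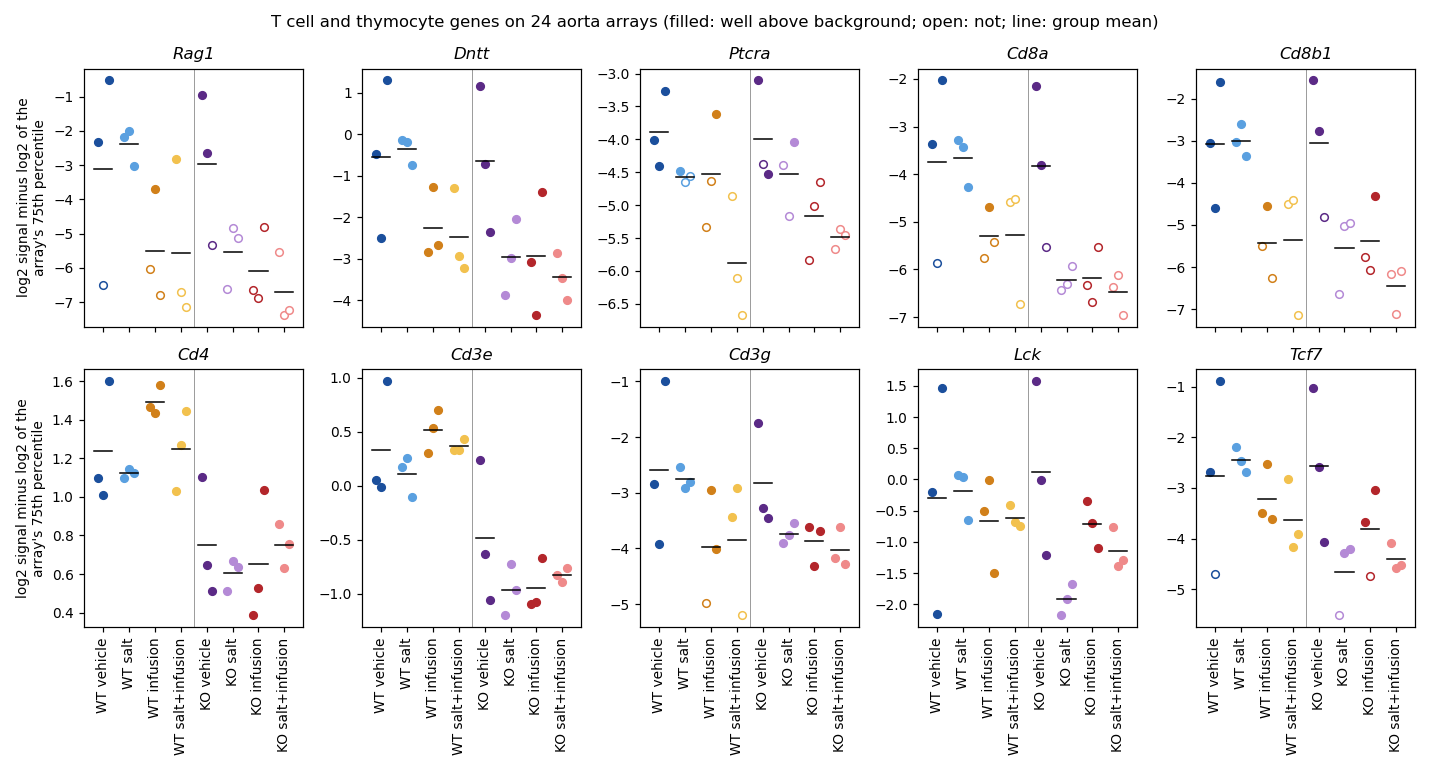
Signal of each of the 10 genes on each array (log2, relative to the array's 75th percentile), 8 groups of 3 arrays in order of replicate number. Filled points are well above background, open points are not, and the black line is the group mean. Wild-type (WT) vehicle 3 and knockout (KO) vehicle 1 are the 2 highest arrays for Rag1, Dntt, Ptcra, Cd8a, Cd8b1, Cd3g, Lck and Tcf7, while Cd3e and Cd4 span 2.17 and 1.22 log2 units over all arrays.

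The spread between replicates of a group was large for 8 of these genes. The within-group SD, pooled over the 8 groups, was 1.81 for Rag1, 1.23 for Dntt, 1.13 for Cd8b1, 1.09 for Cd8a, 1.01 for Tcf7, 0.889 for Lck, 0.858 for Cd3g and 0.640 for Ptcra. The median gene of the 23503 had 0.259. Rag1 was above 100% of genes to the precision printed, Dntt above 99.6% and Ptcra above 93%. Cd3e, at 0.343, was above 65.8% and Cd4, at 0.220, above 39.7%. From the lowest to the highest array the signal differed 115-fold for Rag1, 50.3-fold for Dntt and 47.3-fold for Cd8b1, and 2.33-fold for Cd4. A ratio that reaches down to arrays not well above background, as for Rag1 and Cd8b1, is a ratio of measured spot signals and not of RNA.

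The 8 groups were ranked by their means. For Dntt the order from high to low was wild-type salt (-0.35 ± 0.34, SD, n = 3), wild-type control (-0.55 ± 1.90), knockout control (-0.63 ± 1.76), wild-type infusion (-2.25 ± 0.86), wild-type salt-infusion (-2.48 ± 1.04), knockout infusion (-2.94 ± 1.49), knockout salt (-2.96 ± 0.92) and knockout salt-infusion (-3.44 ± 0.57). The arrays of all 7 pairs of neighbouring groups in that order overlapped, while the wild-type salt arrays, the lowest at -0.74, lay above every array of the 5 groups from wild-type infusion downwards. The same held for the 7 pairs of Rag1, Ptcra, Cd8a, Cd8b1, Cd4, Cd3e and Tcf7, each in its own order. For Lck 6 of 7 overlapped, the knockout salt-infusion and knockout salt groups being apart, and for Cd3g 6 of 7, knockout control and knockout salt being apart.

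Set against each other array by array, the genes formed a block. Over 24 arrays the Pearson correlation with Dntt was 0.954 for Rag1, 0.944 for Cd8a, 0.94 for Tcf7, 0.929 for Cd8b1, 0.831 for Cd3g, 0.767 for Lck and 0.659 for Ptcra, and lower for Cd3e (0.556) and Cd4 (0.436). With group means removed the order differed: Tcf7 had 0.96, Rag1 0.919, Cd8a 0.876, Cd8b1 0.85, Lck 0.771, Cd3e 0.754, Cd3g 0.747, Cd4 0.614 and Ptcra 0.597, so Cd3e and Cd4 then lay among the others. All values share each array's scaling, and they are given as a description. Without the 2 arrays highest in Dntt, the value was 0.933 for Rag1, 0.907 for Cd8a, 0.9 for Tcf7, 0.589 for Lck and 0.476 for Ptcra. Within the 12 wild-type arrays it was 0.139 for Cd3e and -0.129 for Cd4, against 0.827 and 0.64 within the 12 knockout arrays. The genotypes were thus alike for Rag1 (0.975 and 0.948) and not for Cd3e and Cd4, and that difference was not tested.

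**Figure D2:**
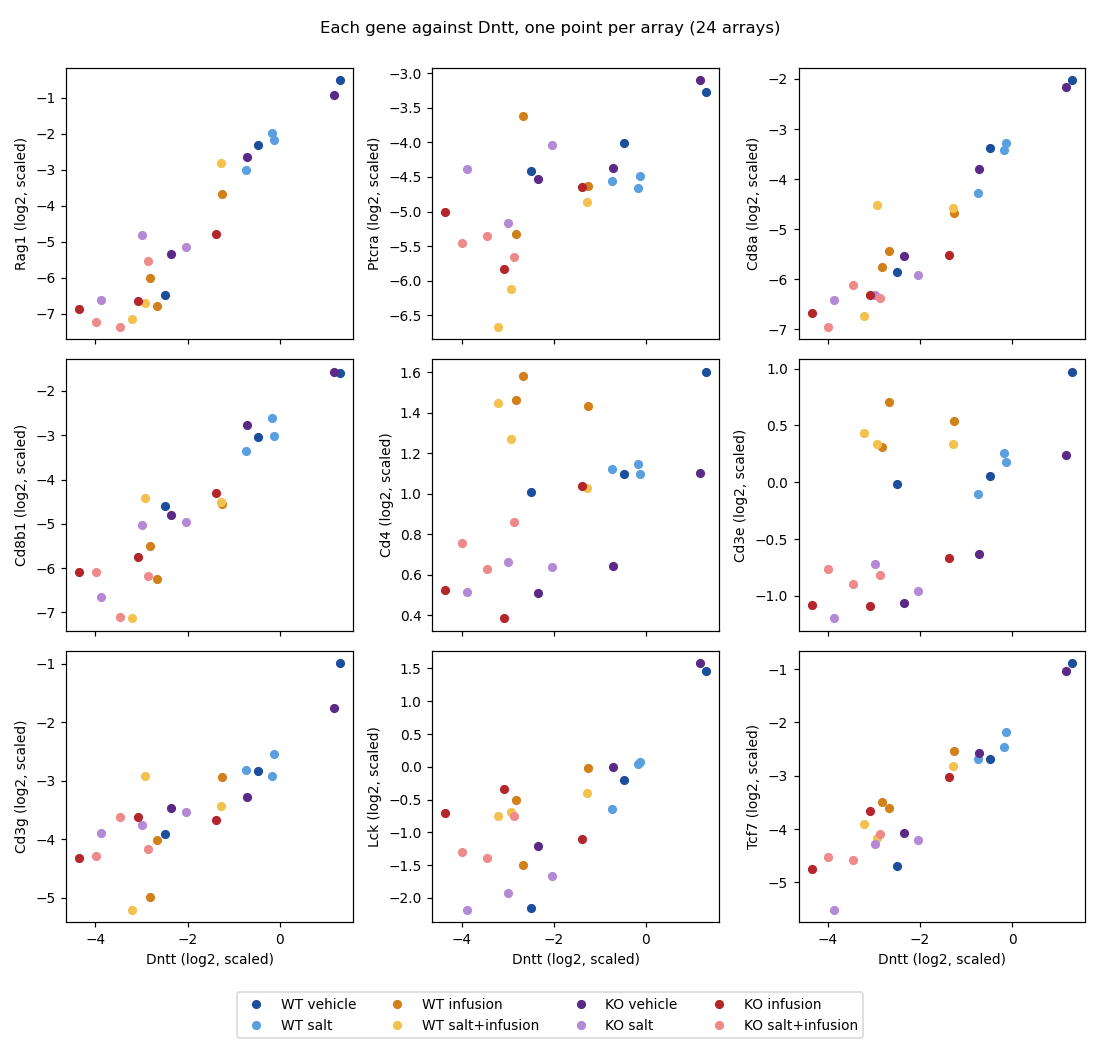
Each of the 9 other genes (vertical axis) against Dntt (horizontal axis), both as log2 signal relative to the array's 75th percentile, with 1 point per array coloured by group. Rag1, Cd8a, Cd8b1 and Tcf7 follow Dntt over the 24 arrays (r from 0.929 to 0.954), while Cd3e and Cd4 lie at mostly separate levels on wild-type (WT) and knockout (KO) arrays.

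The thymus-only genes were compared with the pan-T genes through the mean log2 signal of each set on each array. The 2 means had a Pearson correlation of 0.924 and a Spearman correlation of 0.883 over 24 arrays, and the Pearson value was 0.918 after the group means were removed, 0.918 within the wild type and 0.944 within the knockout. Wild-type control 3 had the highest of both means, at -0.83 for the thymus-only and -0.21 for the pan-T genes. Knockout control 1 was next, at -0.96 and -0.51, and 5 of the 5 highest arrays were shared between the sets, the others being wild-type salt 1 and 2 and wild-type control 1. The 3 thymus-only genes were all well above background on those 2 control arrays, on wild-type control 1 and on wild-type salt 1. Wild-type control 3 and knockout control 1 also had the lowest 75th percentile signal of their genotype, 269.6 and 382.7 intensity units against up to 460 and 771.6, and its part in their levels was not tested.

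The thymus-only mean did not always go with the pan-T mean. The thymus-only minus the pan-T mean ran from -0.45 on knockout control 1 to -3.10 on wild-type salt-infusion 2. The latter array was 20th of 24 in the thymus-only mean and 10th in the pan-T mean, with Rag1 at -6.71 and Dntt at -2.93 but Cd3g at -2.91 and Cd8b1 at -4.41. Rag1 and Cd8b1 were not well above background on it. On that array the summed linear signal of the 9 genes fixed as markers of NK and cytotoxic cells was 4.69 times the 75th percentile, and on the 23 others it was 1.49 to 2.91, while Ncr1, Klrb1c and Klrk1 of that list were not well above background on any array. The sum is linear, so 1 bright gene can carry it. Infused arrays in general had the more negative differences, from -3.10 to -0.93, against -1.57 to -0.45 on arrays without infusion. These ranges overlap. On no infused array were all 3 thymus-only genes well above background, so their mean there holds signals below the flag. The pan-T mean holds Cd3e and Cd4, whose wild-type changes with infusion were positive. A larger fall of the thymus-only genes is therefore not read from these differences.

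**Figure D3:**
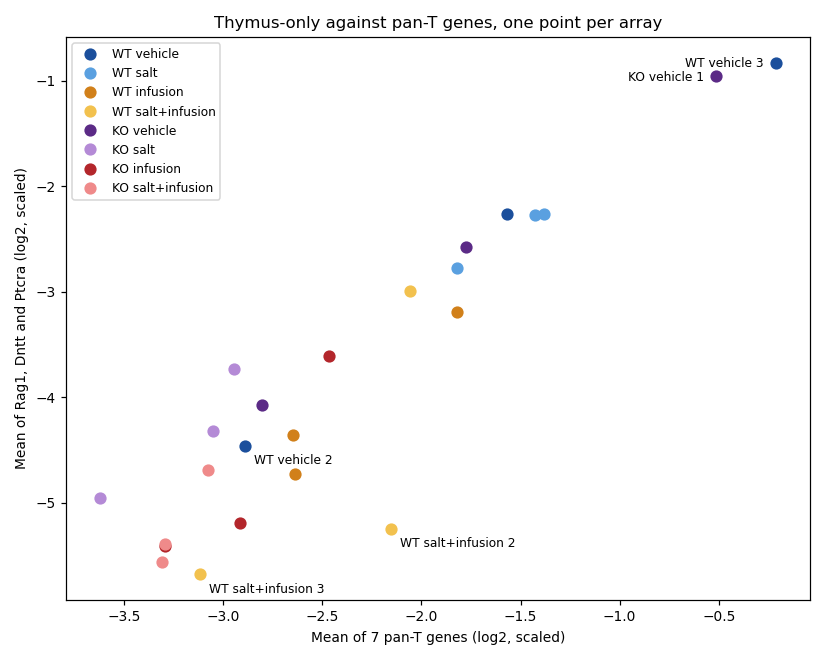
Mean log2 signal of Rag1, Dntt and Ptcra (vertical axis) against the mean of the 7 pan-T genes (horizontal axis), both relative to the array's 75th percentile, with 1 point per array coloured by group. WT vehicle 3 and KO vehicle 1 lie at the top right, WT vehicle 2 lies among infused arrays, and WT salt+infusion 2 lies to the right of the others at its height (-5.25 and -2.15).

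The infusion comparisons ask how the aorta responds to BAPN plus angiotensin II, and they were made in each genotype on plain water and on salt. On plain water the 10 genes were mostly lower after infusion. In the knockout all 10 changes had a negative sign, and the log2 change was -2.30 ± 0.93 (SE, n = 3 and 3) for Dntt, a 4.93-fold lower level, and -1.25 ± 0.77 for Tcf7. Rag1, Cd8a and Ptcra were below the flag on all 3 infused knockout arrays and well above background on 2 of the 3 controls. No size of their changes is therefore given. Wild-type changes were negative for 8 of 10, with -1.70 ± 0.93 for Dntt and -2.35 ± 0.86 for Cd8b1, while Cd3e (0.18 ± 0.27) and Cd4 (0.26 ± 0.18) were slightly positive. Cd8b1 was well above background on 1 of the 3 infused wild-type arrays, so its value is a difference of spot signals and not of RNA. The bulk signal of a tissue cannot tell fewer T cells or thymocytes from less RNA per cell.

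These values rested on single control arrays. Without knockout control 1 the Dntt change was -1.40 in the knockout. Without wild-type control 3 the wild-type changes were -0.77 for Dntt, -1.08 for Rag1 and -0.68 for Cd8a, and turned positive for Lck (0.51) and Tcf7 (0.48). Rag1 and Cd8a were each well above background on 1 of the 3 infused arrays. Their values are thus differences of spot signals and not of RNA. All 3 wild-type control arrays lie on one slide and all 3 infusion arrays on another, and with slide as a fixed block the values for Cd8a, Cd8b1, Cd3g and Ptcra turned positive there and that for Dntt was -0.59 ± 1.61. The fixed block takes the slide difference from 1 array per genotype, wild-type salt-infusion 3 and knockout infusion 3. Only those lay on another slide than the rest of their group. For infusion in the salt-drinking wild type and in the knockout on plain water the block gives the change found without that array. It is therefore not a check apart from leaving those arrays out.

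In the wild type on salt the 3 salt arrays were tight and high, and the log2 change with infusion was -2.13 ± 0.93 for Dntt and -1.18 ± 0.77 for Tcf7. Ptcra was well above background on 1 of the 3 salt arrays and on 0 of the 3 infused ones, so no size of its change is given. Cd8a and Cd8b1 were at least 1.83-fold and 2.85-fold lower, and Cd3e was higher (0.26 ± 0.27). Cd8a had passed the filter on dim probes only through this salt group. In the knockout on salt, Dntt was -0.47 ± 0.93 and Lck 0.78 ± 0.68, and Rag1, Cd8a and Cd8b1 were below the flag on all arrays of both groups. All 3 knockout salt arrays lie on one slide and all 3 knockout salt-infusion arrays on another, and with slide as a fixed block the Dntt change was -2.81 ± 1.61 in the knockout and -1.76 ± 1.00 in the wild type. Without the block the Dntt change in the knockout minus that in the wild type was 1.66 ± 1.32 on salt and -0.60 ± 1.32 on plain water. Over the 23503 genes, 14 (0.0596%) passed the threshold for the genotype difference on salt and 0 on plain water (limma, Benjamini-Hochberg adjusted p under 0.05), with 2119 and 1532 at an unadjusted p under 0.05.

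Counted in the fit across all genes, 2 of the 10 were called lower for infusion in the salt-drinking wild type (Cd8b1 and Ptcra) and 2 in the knockout on plain water (Cd8a and Cd8b1), with 0 in the 2 other infusion comparisons. Of all genes tested, 16.6% were called lower and 16.3% higher in the first of these (32.9% in all), and 16.4% lower and 14.3% higher in the second (30.7%). The shares were 13.7% lower and 12.2% higher for the wild type on plain water (25.9%), and 12% lower and 13.3% higher for the salt-drinking knockout (25.3%). Nothing is read from the members' count, since the set was chosen on these arrays. The median log2 change of the 10 genes was -1.01 and -1.25 for infusion in the wild type on plain water and on salt, and -1.21 and -0.27 in the knockout, beside medians of all genes from -0.05 to -0.02.

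Salt without infusion asks what salt does alone, and its control and salt arrays share a slide in each genotype. In the knockout all 10 changes were negative, with Dntt at -2.33 ± 0.93, Tcf7 at -2.10 ± 0.77 and Lck at -2.04 ± 0.68. Cd8b1 and Rag1 were below the flag on all 3 salt arrays and well above background on 2 of the 3 controls. No size of their changes is therefore given. Wild-type changes were positive for 6 of 10, and Dntt was at 0.20 ± 0.93 and Rag1 at 0.72 ± 1.37. The wild-type direction depended on which control array was kept: Dntt was at 1.13 without wild-type control 3 and at -0.76 without wild-type control 2. In the knockout the Dntt value was -1.43 without knockout control 1. The Dntt change in the knockout minus that in the wild type was -2.54 ± 1.32, and 0 of 23503 genes passed for this genotype difference (limma, adjusted p under 0.05), with 474 at an unadjusted p under 0.05. Salt called 0 of 23503 genes in either genotype, 0% of those tested (limma, adjusted p under 0.05), with 499 and 714 genes at an unadjusted p under 0.05 in the wild type and the knockout. These comparisons use the same control arrays as the infusion comparisons on plain water.

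The other genes of the T lineage, from a list of 24 that holds none of the 10, gave tests beside this description. Of these 18 passed the filter. For infusion, 3 rose and 2 fell in the wild type on plain water, 0 rose and 4 fell in the salt-drinking wild type, 2 rose and 4 fell in the knockout on plain water, and 2 rose and 1 fell in the salt-drinking knockout (limma, adjusted p under 0.05 over all genes). With slide as a fixed or random block 0 were called in the wild type on plain water, and with the fixed block 1 in the salt-drinking wild type. The all-gene counts with a block are not given here, so these losses are not read as particular to the list. Without a block the shares called were 27.8%, 22.2%, 33.3% and 16.7% in that order of comparisons, beside 25.9%, 32.9%, 30.7% and 25.3% of all genes tested, so nothing particular to the list is read from them. The list's median log2 change was -0.65, -0.69, -0.58 and -0.10 in that order. Salt called 0 of the 18 in either genotype, with 0 at an unadjusted p under 0.05 in the wild type and 6 in the knockout.

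Cd28, the co-stimulatory receptor that T cells need beside antigen, was the gene of this list that fell in all 4 infusion comparisons. On plain water it went from -1.75 ± 0.34 (SD, n = 3) to -2.69 ± 0.33 in the wild type, a log2 change of -0.94 ± 0.21 (SE, limma adjusted p = 0.00408), and from -1.81 ± 0.27 to -2.88 ± 0.39 in the knockout, a change of -1.07 ± 0.21 (adjusted p = 0.00129). On salt it fell by 0.87 in the wild type (limma adjusted p = 0.005) and by 0.80 in the knockout (adjusted p = 0.0111). The arrays of the compared groups did not overlap in any of the 4. With slide as a block the call in the wild type on plain water was lost, at -0.50 ± 0.34 with a fixed block (limma adjusted p = 0.474) and -0.70 ± 0.29 with a random one (adjusted p = 0.181), and the 3 other calls stayed. The fixed block in the wild type rests on salt-infusion 3 alone. Cd28 thus differed from Dntt, whose control and infused arrays overlapped on plain water.

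Cd6, a scavenger-type receptor of T cells, fell in the wild type by 1.93 ± 0.36 on plain water and by 1.27 ± 0.36 on salt (limma adjusted p = 0.00114 and 0.0127), and its knockout changes of -0.92 and -0.13 did not pass. Its highest arrays were wild-type control 3 at -0.22 and knockout control 1 at -0.87, as for Rag1. Cd5, an inhibitory receptor of T and B-1 cells, fell by 1.53 ± 0.44 in the knockout on plain water (limma adjusted p = 0.0137). Trat1, an adaptor of the receptor complex, fell in the knockout on plain water (adjusted p = 0.0126) and in the salt-drinking wild type (adjusted p = 0.0232), where it was below the flag on all infused arrays and at least 2.02-fold lower. Icos, a co-stimulatory receptor of activated T cells, fell in the salt-drinking wild type by at least 1.85-fold (adjusted p = 0.019). The wild-type calls were lost with slide as a fixed block for Cd6 (limma adjusted p = 0.406 on plain water and 0.0716 on salt), Trat1 (0.158) and Icos (0.105).

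Several listed genes rose. Thy1, a surface protein of mouse T cells that fibroblasts also carry, rose by 1.23 ± 0.28 in the knockout on plain water and by 1.28 ± 0.28 on salt (limma adjusted p = 0.00317 and 0.00301). In the wild type on plain water it rose by 0.77 ± 0.28 (adjusted p = 0.048), and the 0.60 ± 0.28 on salt did not pass. Cd247, the CD3 ζ chain, rose in the wild type on plain water from -2.41 ± 0.81 to -0.96 ± 0.31 (limma adjusted p = 0.00642). It ran against the other genes within the controls, being lowest on the arrays highest in Rag1, with -1.68, -2.26 and -3.28 in wild-type and -3.64, -2.41 and -2.63 in knockout controls. Il7r, the interleukin 7 receptor chain of naive and memory T cells, was below the flag on all wild-type controls and called higher after infusion (limma adjusted p = 0.00103). It was -3.93, -2.72 and -4.77 on the infused arrays. The last value lies below the lowest signal well above background on that array (-4.54), so no size of the change is given. Cd2, an adhesion receptor of T and NK cells, rose in the salt-drinking knockout by 1.41 ± 0.44 (adjusted p = 0.0258). With slide as a fixed block the calls of Cd247 (limma adjusted p = 0.24), Il7r (0.223) and Thy1 in the wild type on plain water were lost, as was that of Cd2 (0.0727). The genotype difference did not pass for any of these genes, with an adjusted p of 0.637 for Cd247 and 0.552 for Il7r on plain water.

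A second list held 12 other genes used as thymocyte markers, of which 10 passed the filter. For infusion, 0 rose in any of the 4 comparisons, and 5 fell in the wild type on plain water, 6 in the salt-drinking wild type, 5 in the knockout on plain water and 2 in the salt-drinking knockout (limma, adjusted p under 0.05). With slide as a fixed or random block 0 were called in the wild type on plain water, and with the fixed block 2 in the salt-drinking wild type. The all-gene counts with a block are not given here, so these losses are not read as particular to the list. Without a block the shares of all genes called lower were 13.7%, 16.6%, 16.4% and 12% in the same order. Genes of other cells were lower in the same comparisons: 5 of 8 B cell genes in the salt-drinking wild type (list median -1.10), 3 of 7 smooth muscle genes (-0.88) and 2 of 5 perivascular fat genes (-1.41) in the knockout on plain water, 2 of 7 smooth muscle genes in the salt-drinking knockout and 1 of 7 in the wild type on plain water. Their part in the thymocyte counts was not tested. The medians of the thymocyte list were -0.89, -1.05, -1.01 and -0.60. Salt called 0 of 10 in either genotype, with 0 and 3 at an unadjusted p under 0.05. Rag2, the partner of Rag1, was well above background on 4 arrays and Themis on 0, and neither passed the filter.

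The genes that fell included some that are not restricted to thymocytes. Satb1, a chromatin organiser of thymocytes, fell in all 4 infusion comparisons, by 1.48 ± 0.35 and 1.45 ± 0.35 in the wild type on plain water and on salt, and by 2.18 ± 0.35 and 1.60 ± 0.35 in the knockout (limma adjusted p from 0.000356 to 0.00591). Its signals were 0.34, -0.18 and 0.81 in wild-type controls against -1.31, -1.35 and -0.82 after infusion, with no overlap. With slide as a block the call in the wild type on plain water was lost, at -0.45 ± 0.44 with a fixed block (limma adjusted p = 0.635) and -0.91 ± 0.44 with a random one (adjusted p = 0.247), and the 3 other calls stayed. Notch3, a receptor that vascular smooth muscle also carries, fell by 1.84 ± 0.40 and 1.47 ± 0.40 in the knockout on plain water and on salt (adjusted p = 0.00239 and 0.0126), and by 1.1 and 1.08 in the wild type, near the threshold. Its knockout controls were 1.62, 1.53 and 1.46, close together where Rag1 was far apart. Dtx1, a Notch target, fell in 3 of the 4, by 1.00 to 1.37, and Aqp11, a water channel, in the same 3, by 1.07 to 1.22. Of the 3 Dtx1 calls 1 remained with slide as a fixed block, that in the knockout on plain water (limma adjusted p = 0.00215), where Aqp11 missed the threshold (0.0625).

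Endou, an endoribonuclease used as a marker of immature thymocytes, fell in the wild type on plain water by 0.84 ± 0.27 (limma adjusted p = 0.0298). Arpp21, a phosphoprotein gene, fell in the salt-drinking wild type by 2.02 ± 0.63 (limma adjusted p = 0.0198). Both calls were lost with slide as a fixed block (limma adjusted p = 0.568 for Endou and 0.117 for Arpp21). Ccr9, the chemokine receptor of thymocytes and gut-homing T cells, did not pass in any comparison. It was -2.59 ± 0.87 for salt in the knockout, the smallest p of its list there (unadjusted 0.00825), as Trat1 was for the other list (-1.65 ± 0.61, unadjusted 0.0144). In the wild type the gene of smallest p for salt was Cd247 (0.71 ± 0.35, unadjusted 0.0604) in the first list.

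These counts moved with single arrays. Without wild-type control 3 the second list had 1 gene called for infusion in the wild type on plain water, and without wild-type infusion 2 likewise 1. Without knockout control 1 it had 3 on plain water in the knockout, and the first list 3. Without wild-type salt-infusion 3 both lists had 1 called in the salt-drinking wild type. The number called over all 23503 genes moved as well. It was 2674 without wild-type infusion 2, beside 6086 with all arrays, and 4474 without wild-type salt-infusion 3, beside 7739. For the knockout on plain water it ran from 3964 to 9741 with 1 array left out, beside 7204. These shifts are therefore not read as particular to the lists.

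**Figure D4:**
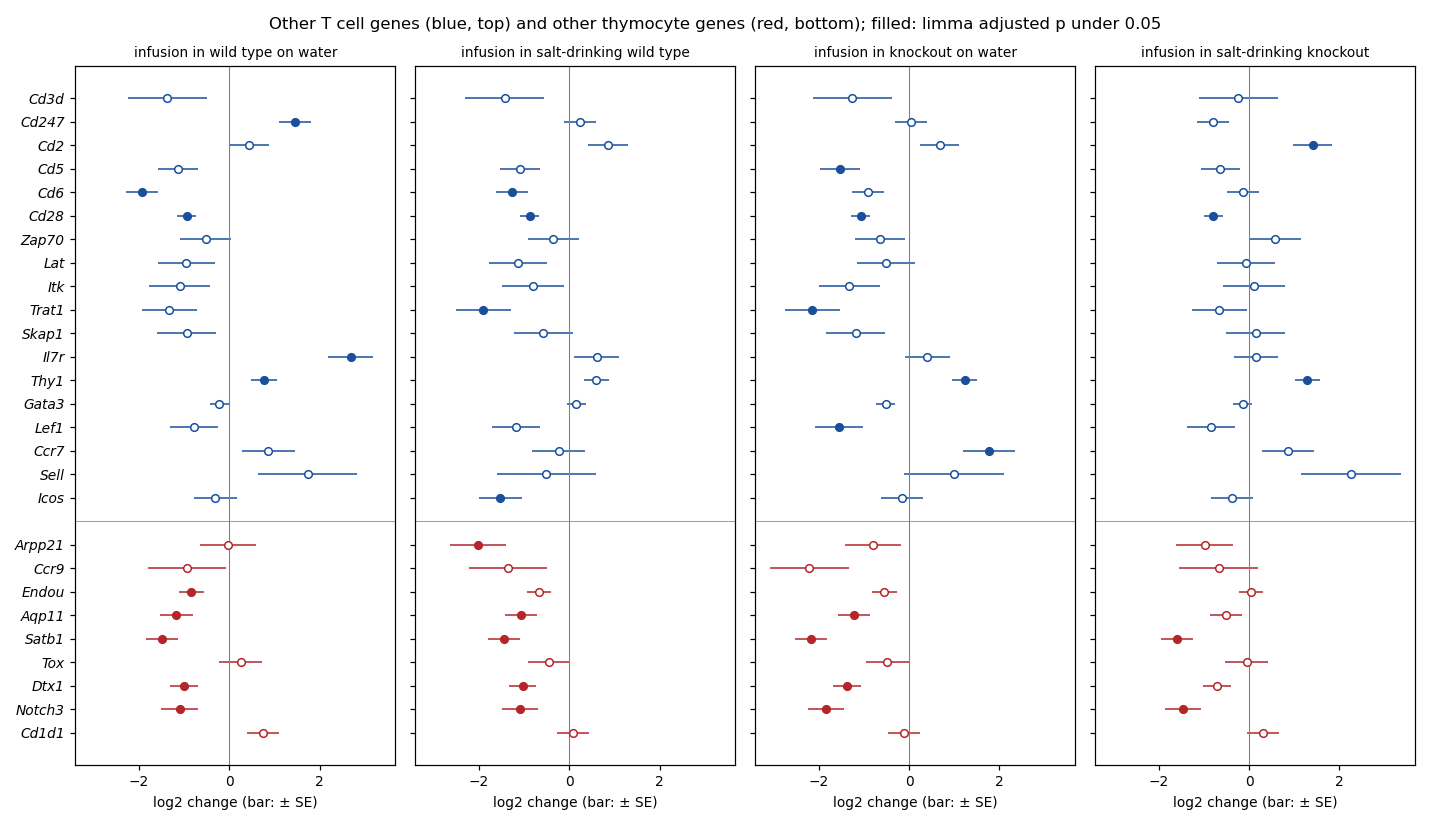
Log2 change with infusion (horizontal axis, bars ± SE from the fit over 24 arrays) of the 18 other T cell genes (blue, upper) and 9 of the 10 other thymocyte genes (red, lower), in the 4 infusion comparisons. Filled points passed an adjusted p under 0.05. Satb1 and Cd28 are filled and negative in all 4 panels, and Thy1 is filled and positive in 3.

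The genes with the most similar pattern were taken by Pearson correlation over 24 arrays among 23455 genes with a value on every array. For the thymus-only mean they were Lef1 (0.931), a T lineage transcription factor, Nsg2 (0.927), Cd5 (0.921), Ccr9 (0.914), Ly6d (0.898), Cd3d (0.861), Myb (0.859), Endou (0.853), Cd6 (0.836) and Ptprcap (0.833). For the pan-T mean Ccr9 (0.944) and Lef1 (0.924) led, and Ly6d, Myb, Nsg2, Ptprcap, Cd3d and Cd5 were again among the first 10, with Lat (0.859) beside them. With group means removed, Nsg2 (0.924), Ccr9 (0.907), Lef1 (0.898) and Myb (0.893) led for the thymus-only mean, which then also had Zap70 (0.857) and Gpr3 (0.849) among its 10.

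A pair of features under database names stood above or among these, and the files describe them as constant regions 1 and 2 of the T cell receptor β chain. Their correlation with the thymus-only mean was 0.939 and 0.933, and with the pan-T mean 0.964 and 0.991. They were picked after their values were seen. Both were well above background on all 24 arrays. Constant region 2 had signals of 0.69, -1.43 and 2.36 in wild-type controls and 1.67, 0.21 and -1.08 in knockout controls, 0.95, 0.93 and 0.31 in the wild-type salt group, and -0.89, 0.02 and -1.36 in the wild-type infusion group. The 2 highest arrays were those of Rag1 and Dntt, here on a probe that was measured throughout.

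Markers of other cells were read on the same arrays. Of 8 genes fixed as thymic stroma, Foxn1, Psmb11, Prss16 and Fezf2 were well above background on 0 arrays, while Ccl25 and Tbata, the highest of the list, were so on all 24. The mean log2 of that list ran from -5.11 to -4.45 in knockout and -5.02 to -4.49 in wild-type controls, and had a correlation of 0.36 with Dntt (0.582 with group means removed). Of 10 B cell genes 3 were well above background on all arrays, with Cd22 and Cd79b the highest, and 1, Blk, on none. The summed linear signal of that list was 2.06 to 3.97 times the 75th percentile on wild-type and 0.899 to 1.40 on knockout arrays, and its mean log2 had a correlation of 0.665 with Dntt (0.435 with group means removed). Their part in the values above was not tested.

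Of 9 genes of regulatory and helper T cells, Ikzf2 was well above background on all arrays and Il2ra, the next highest, on 7. Il17a, Il17f, Il23r, Il4 and Il21 were well above background on 0 arrays, and Foxp3 on 5. The mean log2 of these 9 genes had a correlation of 0.513 with Dntt (0.619 with group means removed). Much of that mean is signal below the flag, and what lies behind the correlation was not tested. Of 5 genes of lymph node stroma and venules, the chemokine gene Ccl19 and Chst4 were well above background on all arrays, and Glycam1 on 3. That list's mean log2 had a correlation of -0.327 with Dntt, which was 0.257 with group means removed. Of the NK and cytotoxic genes, Nkg7 and Prf1 were highest and the correlation was 0.151 (0.0972 with group means removed).

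The perivascular fat list, led by Cidea and Retn, had a correlation of 0.552 with Dntt (0.491 with group means removed), and its summed signal was 8.61 to 14.2 times the 75th percentile in wild-type controls, highest on control 3, against 6.83 to 8.02 after infusion. In the knockout that sum was 9.93 to 14.7 in controls and 3.05 to 8.82 after infusion. There it was highest on control 2, while control 1, the array high in Rag1 and Dntt, had 10.95. Smooth muscle had 0.615 (0.332 with group means removed). Macrophage genes, led by Csf1r and Mrc1, had -0.565, which was 0.00773 with group means removed, and the list's mean log2 was 0.39 to 0.96 in wild-type controls and 1.24 to 2.74 after infusion. Endothelial genes had -0.308 (-0.412 with group means removed) and skeletal muscle genes, led by Acta1 and Tnnt3, 0.456 (0.534). Their part in the levels of the T cell and thymocyte genes was not tested.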

How the data were processed

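Cy3-labelled aorta RNA was hybridised to 24 one-colour Agilent arrays, 3 per group. The deposited scanner files give the processed signal as an intensity, background-subtracted on each array, with Feature Extraction 10.7.1.1 per the file headers and 9.5.1.1 per the submitters' processing notes. The authors' deposited value table, a linear intensity whose columns hold the same sorted values, was an alternative.

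Of 59305 spots per array outside controls, those marked as outliers were dropped, and replicate spots of a probe were averaged. Values are log2 minus log2 of the array's 75th percentile (269.6 to 771.6). A probe was kept if well above background on all 3 arrays of 1 group and present on 2 arrays of every group (33374 probes, brightest probe per gene, 23503 genes). Names came from RefSeq accessions (27235 probes) or the file. One model over 24 arrays gave 6 comparisons and 3 genotype differences (lmFit and eBayes, limma 3.58.1, R 4.3.3, Benjamini-Hochberg threshold 0.05). Other tools were data.table (1.17.8), pandas 2.3.3 and matplotlib 3.10.9 in Python 3.11.15. A bound sets the brighter group's mean against the higher of each dim array's own signal and its lowest signal well above background. It holds only where the brighter group was well above background on all of its arrays.

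Slide 1 held knockout control, salt and infusion 1 and 2, slide 2 the other knockout arrays, slide 3 wild-type control, salt and salt-infusion 1 and 2, and slide 4 the others. Replicate numbers came from source names, which differ from titles for wild-type salt.

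The 10 genes, the 12 lists and the alternatives were chosen with earlier results of these data known. Named were all 10, up to 4 genes past the threshold by smallest p per T cell or thymocyte list and comparison (otherwise the smallest p), the 2 brightest of each other list, and the 10 most alike per pattern. One gene of the thymocyte list that this rule named is counted but not reported here. On simulated arrays for infusion in the wild type on plain water (23465 genes), 8%, 54%, 88% and 98% of genes changed by log2 0.5, 1, 2 and 3 were recovered, with 4 false calls. The simulation changed 200 genes and had independent noise and no slide effect. In the data 25.9% of genes were called and the 2 groups lay on different slides. The simulated shares and false calls therefore do not describe the real comparison.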

Additional observations from a re-analysis of the deposited data

How the results depend on the processing

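The alternatives were normexp background correction with an offset of 50, quantile normalisation, the authors' values, no filter, a filter asking for detection on all 24 arrays, averaging over the probes of each gene, a trended prior, slide as a fixed or random block (correlation 0.483), a replicate block, only the compared groups, 1 slide alone, and leaving out each array. Signs were compared only for the 10 genes and for the listed genes that the rule named in each comparison. Among these no called value turned its sign under any of the alternatives. Calls were lost, however: of the changes of the named listed genes under these settings, 504 stayed called or not called and 90 lost their call. Of the changes of the 10 genes, 1024 stayed within the pooled SD of the compared groups and 40 moved further. Of the counts of called T cell and thymocyte genes under these settings, 187 stayed within 1.5 times and 33 moved. Of the counts over all genes, 89 stayed and 21 moved. For infusion in the wild type on plain water (5 T cell and 5 thymocyte genes), the counts were 0 and 0 with either slide block and 1 and 1 with only the compared groups, and the thymocyte count was 3 with the mean of probes and 1 without knockout control 1 and wild-type control 3 together, a choice made after seeing the data. In the salt-drinking wild type (4 and 6) they were 2 and 3 with normexp, 1 and 2 with the fixed slide block and 1 and 3 on 1 slide, and the T cell count was 2 with detection asked for on all 24 arrays. In the knockout on plain water (6 and 5) they were 3 and 2 with only the compared groups, and the thymocyte count was 3 on 1 slide. In the salt-drinking knockout (3 and 2) the T cell count was 5 with no filter and 6 with only the compared groups. The cause of these shifts was not tested. Leaving out 1 array gave 4 to 7 T cell and 1 to 5 thymocyte genes for the wild type on plain water, 1 to 5 and 1 to 4 for the salt-drinking wild type, 3 to 7 and 3 to 6 for the knockout on plain water, and 2 to 3 and 2 to 2 for the salt-drinking knockout.

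Same-numbered arrays did not deviate together (2 of 18 pairs had a correlation over 0.1, range -0.19 to 0.159), so the numbers do not pair samples. With the replicate block the T cell and thymocyte counts for infusion were 4 and 4, 4 and 5, 6 and 4, and 3 and 2 in the order above, and 0 for salt.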
